A study of Schizosaccharomyces pombe with 28 samples.

Results

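The cytoplasmic ribosomal protein genes of the fission yeast Schizosaccharomyces pombe were taken as all genes whose array symbol starts with rpl or rps and a number. With the brightest probe set standing for each gene, 112 genes met this rule among 2899 S. pombe genes measured. They comprise 67 rpl genes of the large (60S) subunit and 45 rps genes of the small (40S) subunit. The annotation holds 131 such symbols, and 19 of these genes have no probe set of their own, partly because 7 probe sets name a pair of copies and were left out.

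PolyA RNA of cultures in mid-log growth in rich medium (YES), with no treatment, was hybridised to 28 Affymetrix Yeast_2 arrays in 3 projects. Project 582 held 3 arrays each of the zfs1 cbf12 double null, the cbf12-null, the zfs1-null and the wild type (WT), project 529 held 5 zfs1-null and 5 WT arrays, and project 488 held 3 and 3. The series calls the arrays of a group biological replicates. The labels give no mating type, markers or number of isolates for the strains. In bulk cultures a change in the number of cells that make a transcript and a change in its amount per cell cannot be told apart. The deleted genes bore out the labels: zfs1 had a signal of at most 7.70 in strains that lack it, against at least 389 in every WT array, and cbf12 at most 0.67, against at least 170 in the WT arrays of project 582.

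Ribosomal proteins assemble with ribosomal RNA into the subunits that translate mRNA, and most occur once in each subunit. In fission yeast most are encoded by several near-identical gene copies at separate loci, and their transcription follows growth rate and nutrient signals through the TOR kinase pathway. Zfs1 belongs to the tristetraprolin proteins, zinc finger factors that speed the decay of mRNAs carrying AU-rich elements. Cbf12 is one of the CSL transcription factors and is linked to cell adhesion.

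All ribosomal protein transcripts were well above background, with signals between 506 and 7314 on every array against a background of 3.65 to 5.44. Of the 112 genes, 94 (83.9 percent) lay in the brightest 10 percent of all genes, and the median gene lay at percentile 96.5. Only rps1401 (percentile 44.4) and rpl1603 (percentile 47.1), each a dim copy in a family with brighter ones, lay below the middle of all genes. Signals of different probe sets do not rank transcript abundance, and whether probes for one copy also bind the other was not tested.

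The genes moved up and down together from array to array. The log2 level of each gene was set against its mean over the 11 WT arrays, and the median over the 112 genes was taken on each array. In project 582 this median was 0.01, 0.34 and 0.13 in double null arrays, -0.06, -0.16 and 0.02 in cbf12-null arrays, -0.13, -0.01 and 0.07 in zfs1-null arrays, and -0.12, -0.18 and -0.25 in WT arrays. Double null replicate 2 stood highest of all 28 arrays, and the 3 WT arrays of project 582 were among the lowest. In project 529 it ran from 0.13 to 0.20 in zfs1-null arrays and from 0.16 to 0.26 in WT arrays, which overlap, and in project 488 from -0.01 to 0.12 in zfs1-null arrays and from -0.19 to -0.04 in WT arrays, which do not.

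**Figure D1:**
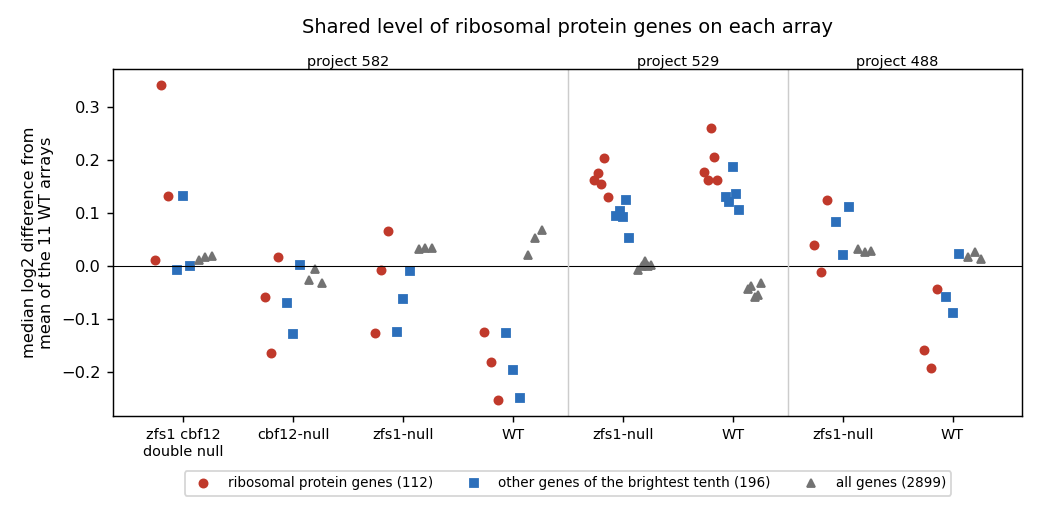
Median log2 difference from the mean of the 11 WT arrays for the 112 ribosomal protein genes (circles), the 196 other genes of the brightest 10 percent (squares) and all 2899 genes (triangles), 1 point per array, with groups on the x axis. The ribosomal protein genes and the other bright genes shift together, from -0.25 on one WT array to 0.34 on double null replicate 2 for the ribosomal protein genes.

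The 196 other genes of the brightest 10 percent moved with them, and their part in the results below was not tested. Their median was lowest (-0.25) on the same WT array of project 582 and was 0.13 on double null replicate 2. The share of the summed signal of all genes that fell on ribosomal protein genes averaged 11.9 ± 1.1 percent in the double null, 10.5 ± 0.55 in the cbf12-null, 10.7 ± 0.56 in the zfs1-null and 9.77 ± 0.33 in WT of project 582 (SD, n = 3 each). It was 11.9 ± 0.17 percent in the zfs1-null and 12.2 ± 0.27 in WT of project 529 (SD, n = 5 each), and 11.1 ± 0.44 in the zfs1-null and 10.01 ± 0.49 in WT of project 488 (SD, n = 3 each). WT itself thus differed between projects: 110 of 112 genes were higher in WT of project 529 than in WT of project 488, by a median of 0.33, and 109 were higher than in WT of project 582, by a median of 0.38. The double null therefore stood above the WT of its own project, while its share of signal was below the average of the WT arrays of project 529.

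Over replicates of 1 group, the pooled standard deviation of a ribosomal protein gene had a median of 0.095 on the log2 scale. Once the array's median over the 112 genes was subtracted it was 0.055. Between pairs of ribosomal protein genes the deviations of replicates from their group mean had a median correlation of 0.66, as a description over arrays that share their scaling, against 0.0027 between all genes. The gene with the largest spread was rps1401 (0.27) and the one with the smallest was rpl1802 (0.05).

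The double null was compared with WT to show the effect of losing both genes. Nearly all ribosomal protein genes were higher in the double null: 98 of 112 passed limma's test at an adjusted p under 0.05, none was lower, and the median log2 change was 0.33. Of all 2899 genes 15.5 percent were called higher and 19.7 percent lower, with a median of -0.04. Of the other 196 bright genes 107 were called higher and 1 lower, with a median of 0.22. The rise covered both subunits, with 42 of 45 40S genes (median 0.34) and 56 of 67 60S genes (median 0.33) called higher.

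The largest change in the double null was that of rpl4101, which encodes a very short 60S protein. Its signals were 3913, 4596 and 3918 in double null arrays, against 3334, 2796 and 2604 in WT arrays. The groups do not overlap, and the log2 change was 0.51 ± 0.11 (SE, limma adjusted p = 0.00331). For rpl1001, a 60S protein gene whose product in budding yeast joins the subunit late in assembly, they were 5250, 6498 and 5186, against 4290, 4031 and 3803 (0.48 ± 0.10, limma adjusted p = 0.00191). Double null replicate 2 held the highest signal of both genes.

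Next came the 40S genes rps13 (0.47), rps29 (0.47) and rps1801 (0.46), and rpl26 of the 60S subunit (0.46). The signals of rps29 were 2864, 3962 and 3069 in double null arrays, against 2357, 2376 and 2338 in WT arrays. The lowest changes were those of rpl702 (0.10, adjusted p = 0.286), rpl3402 (0.12, adjusted p = 0.276) and rps1401 (0.14, adjusted p = 0.606), none of which passed limma's test. All 3 double null arrays exceeded all 3 WT arrays for 94 of 112 genes, against 18.5 percent of all genes.

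The size of this rise, and whether the share called exceeded that over all genes, depended on how the arrays were set to a common level. With array medians set equal the count was 105 and the median 0.43, while quantile normalization gave 12 genes higher and 2 lower with a median of 0.05. Cyclic loess gave 13 genes and a median of 0.10, setting the other bright genes to a common level gave 33 genes and a median of 0.10, and leaving the WT arrays of project 582 out of the WT level gave 41 genes and a median of 0.22. Called either way over all 2899 genes were 1042 with array medians equal, 612 under quantile normalization and 582 under cyclic loess. With the other bright genes set equal 1488 were called, and without those WT arrays 753. Under quantile normalization, cyclic loess and the bright genes' common level the share of the 112 genes was below that over all genes. In the other settings given here it was above it.

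**Figure D2:**
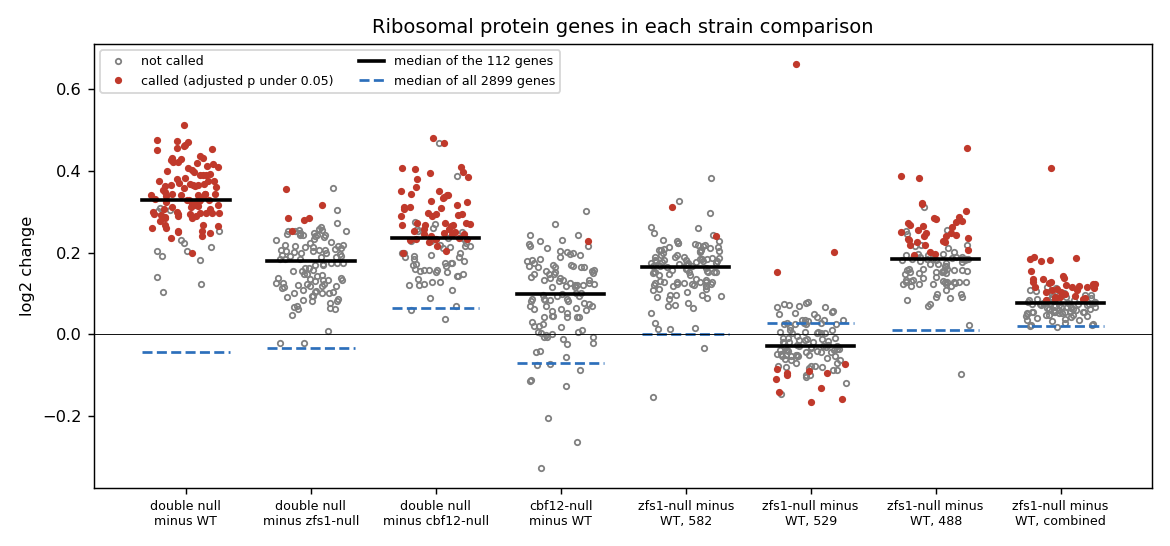
Log2 change of each of the 112 ribosomal protein genes (y axis) in each strain comparison (x axis, deletion strain minus its comparison strain), with genes called at an adjusted p under 0.05 filled, the median of the 112 genes as a solid bar and that of all 2899 genes as a dashed bar. In the double null against WT all 112 points lie above 0, while in project 529 the zfs1-null points lie on both sides of it.

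**Figure D3:**
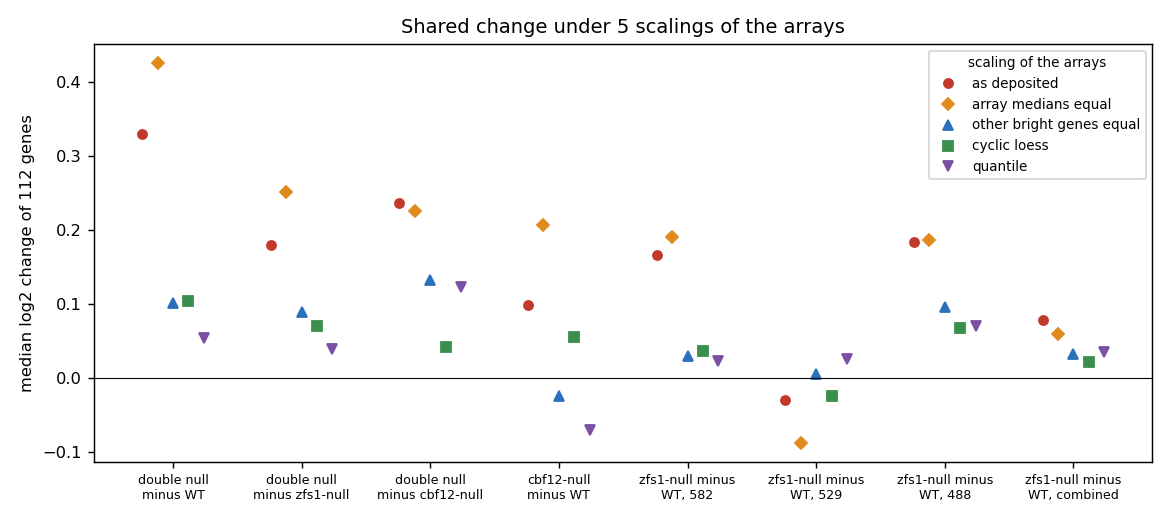
Median log2 change of the 112 ribosomal protein genes (y axis) in each strain comparison (x axis) under 5 scalings of the arrays, 1 symbol per scaling. In the double null against WT the median runs from 0.05 under quantile normalization to 0.43 with array medians equal, and for the cbf12-null against WT its sign changes.

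The zfs1-null was compared with WT to show the effect of losing zfs1 where Cbf12 is present. Over the 3 projects, with a term for project, 35 of 112 genes were called higher and none lower, with a median of 0.08, against 23.4 percent of all genes called higher, 18.3 percent called lower and a median of 0.02 over all genes. All 112 changes were positive, 13 of 45 genes of the 40S and 22 of 67 of the 60S subunit passed, and the other bright genes had a median of 0.04. The count was 8 with array medians equal, 13 under cyclic loess (12 higher and 1 lower), 20 with the other bright genes set equal and 2 without the term for project. Over all 2899 genes 1162, 1269, 978 and 481 were called either way under these settings, in that order, and 1207 in the main fit. The share called among the 112 genes was below that over all genes in each. The count of the 112 genes was 22 without WT replicate 1, and 23 without WT replicate 2 or zfs1-null replicate 3, of project 488, and 23 without zfs1-null replicate 3 of project 582. Over all genes 1129, 1134, 1210 and 1150 were called without these arrays, in the order named.

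The largest combined change was that of rps1401, one of the 2 dim genes, whose product in budding yeast is needed to mature the RNA of the small subunit. In project 529 its signals were 1113, 1216, 1039, 928 and 1384 in zfs1-null arrays, against 656, 663, 856, 734 and 668 in WT arrays. These do not overlap, and the log2 change was 0.66 ± 0.10 (SE, limma adjusted p = 8.5e-05). In project 488 they were 643, 671 and 1037 in zfs1-null arrays, against 561, 727 and 572 in WT arrays, and in project 582 they were 929, 994 and 1061, against 989, 785 and 1075. Both of these pairs of groups overlap, with changes of 0.31 and 0.08, and the combined change was 0.41 ± 0.09 (limma adjusted p = 0.000855).

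**Figure D4:**
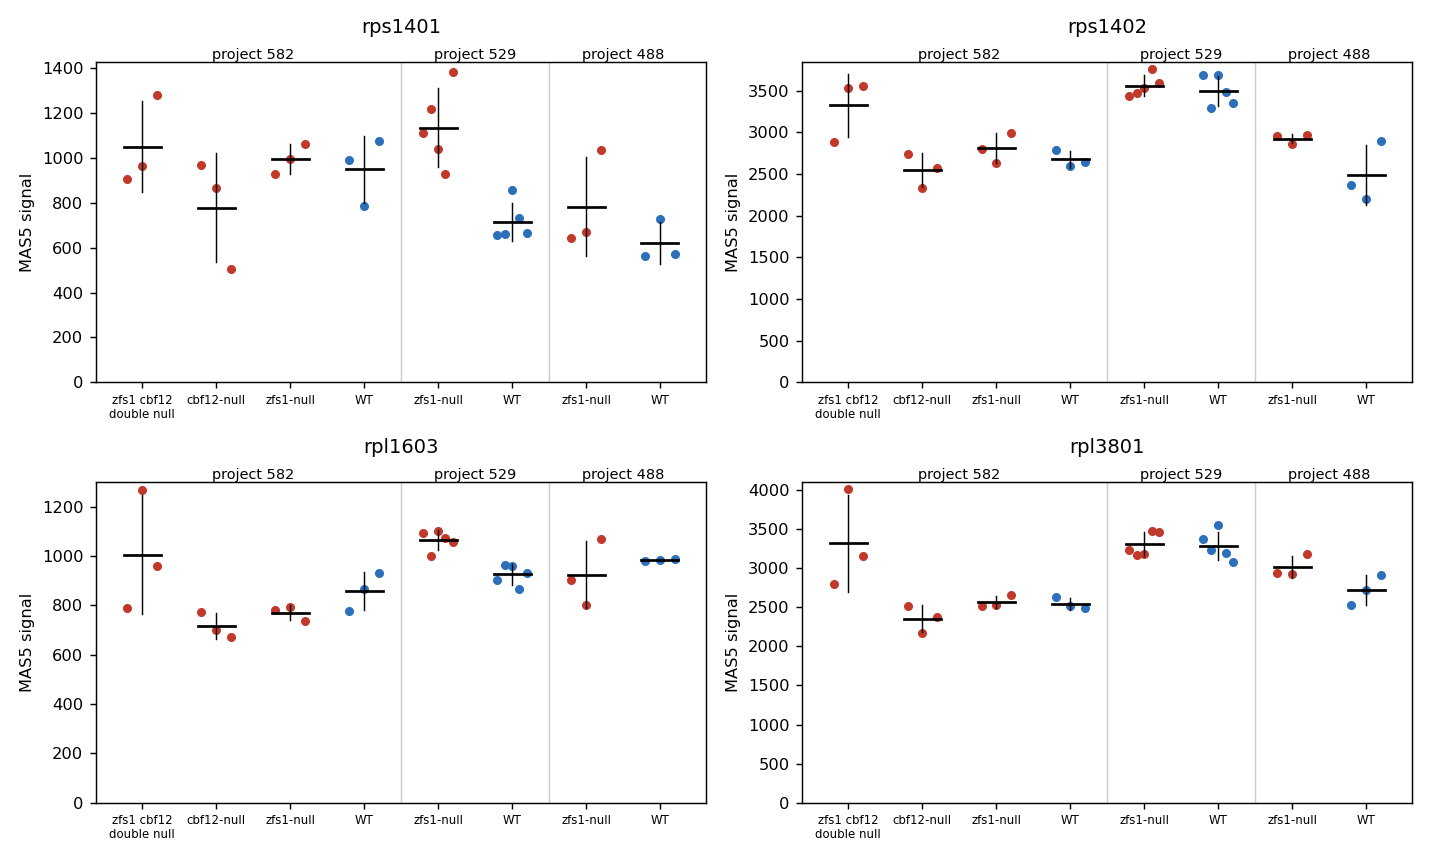
MAS5 signal (y axis, linear, from 0) of rps1401, its copy rps1402, rpl1603 and rpl3801 on each array, with groups on the x axis, deletion strains in red and WT in blue; bars are means and lines the SD. In project 529 the 5 zfs1-null points of rps1401 lie above the 5 WT points, while those of rps1402 mix with theirs.

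In all 24 genes were positive in every project and called over the 3, and the 12 with the largest change are named. After rps1401 came rpl1601 of the 60S subunit, with 0.19 ± 0.04 (limma adjusted p = 0.000422). In project 488 its signals were 3304, 3268 and 3324 in zfs1-null arrays, all above the WT arrays at 2741, 2526 and 2888. The 60S genes rpl3401 and rpl3002 had 0.18 each, and rps29 of the 40S subunit had 0.18. The last 7 of the 12 were rpl2101 (0.14), rps3002 (0.13), rpl803 (0.13), rpl2302 (0.13), rps401 (0.13), rpl701 (0.12) and rps102 (0.12). The value of rps3002 was not shared by the left-out probe sets that name rps3001 and rps3002 together. Over the 3 projects these had -0.04 and 0.02 (limma adjusted p = 0.670 and 0.808 over all probe sets). In project 529 they had -0.17 (limma adjusted p = 0.0326) and -0.005, where rps3002 had 0.08.

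The counts differed between the projects. In project 488, 34 genes were called higher and none lower (median 0.18; all genes 9.87 percent higher, 9.80 percent lower, median 0.01). In project 529, 3 were called higher and 11 lower (median -0.03; all genes 25.7 and 16.5 percent, median 0.03), and in project 582, 2 higher and none lower (median 0.17; all genes 4.14 and 7.14 percent, median -0.00). Thus 74 genes had positive changes in projects 488 and 582 and negative ones in project 529, 36 were positive in all 3, and none was called higher in each. The other bright genes had medians of 0.10, -0.04 and 0.12 in projects 488, 529 and 582.

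In project 488 the highest change was that of rps1002, which encodes a 40S protein. Its signals were 1346, 1261 and 1364 in zfs1-null arrays, against 985, 894 and 1017 in WT arrays (0.46 ± 0.07, limma adjusted p = 0.00126). These groups do not overlap, as they did not for rps2602 (0.39), rpl44 (0.38) and rpl15 (0.32). The count of this project was 10 without WT replicate 2, 11 without WT replicate 1, 15 without zfs1-null replicate 1 and 68 without WT replicate 3. Over all genes 312, 323, 375 and 537 were called without these arrays, in that order, against 570 in the main fit. The count of the ribosomal protein genes was 21 under quantile normalization and 16 under cyclic loess, against 590 and 547 over all genes.

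In project 529 rpl1603 (0.20) and rpl3002 (0.15) were called higher beside rps1401. The signals of rpl1603 were 1091, 998, 1100, 1073 and 1056 in zfs1-null arrays, against 904, 965, 961, 866 and 931 in WT arrays. Lower were rpl1001 (-0.17), rps2 (-0.16), a 40S gene whose product is arginine-methylated, rpl4102 (-0.14) and rpl3601 (-0.13). The signals of rps2 were 4201, 4278, 4369, 4402 and 3799 in zfs1-null arrays, below all WT arrays at 4684, 4690, 4810, 4725 and 4570. The count of this project was 9 without WT replicate 4, and with array medians equal 38 genes were lower and 2 higher. Quantile normalization turned the direction, with 14 genes higher, 2 lower and a median of 0.025, and with the other bright genes set equal 9 were higher and 6 lower, with a median of 0.0053. Over all genes 1230, 1143 and 1243 were called either way under these scalings, in the order named, and 1088 without WT replicate 4.

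In project 582 rpl1601 (0.31 ± 0.07, limma adjusted p = 0.00588) and rpl802 (0.24 ± 0.07, limma adjusted p = 0.0458) passed. The signals of rpl1601 were 3227, 3525 and 3622 in zfs1-null arrays, all above the WT arrays at 2626, 2780 and 2946. The lowest changes were those of rpl1603 (-0.15) and rpl3402 (-0.03), neither of which passed. The count was 17 without double null replicate 2, 12 without zfs1-null replicate 1 and 5 without double null replicate 1, and 1 without any other single array of the 12 except WT replicate 1. Over all genes 544 were called without double null replicate 2, 298 without zfs1-null replicate 1 and 370 without double null replicate 1. In the main fit it was 327.

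A test of the difference between projects passed for 55 genes, against 19.7 percent of all genes and 62 of the 196 other bright genes. For rpl1001 the log2 changes were 0.14, -0.17 and 0.23 in projects 488, 529 and 582 (moderated F, limma adjusted p = 0.000245). For rps1602 they were 0.32, -0.07 and 0.22, for rpl3202 0.18, -0.10 and 0.19, and for rps2 0.18, -0.16 and 0.17. For rpl2802 they were 0.15, -0.10 and 0.20, and for rps1002 0.46, -0.06 and 0.22. These 6 genes share the signs of the median of the 112 genes, negative in project 529 and positive elsewhere. Of the 112 genes 74 had those signs. The count was 36 without WT replicate 3 or WT replicate 4 of project 529, 6 under quantile normalization, 13 under cyclic loess, 33 with the other bright genes set equal and 10 after the median of the 112 genes was set equal on all arrays.

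Losing cbf12 alone, with Zfs1 present, left 1 gene called higher and none lower (median 0.10; all genes 9.18 percent higher, 18.9 percent lower, median -0.07). It was rps13, with signals of 3136, 2916 and 3187 in cbf12-null arrays, against 2699, 2486 and 2701 in WT arrays (0.23 ± 0.08, limma adjusted p = 0.0467). These do not overlap. The lowest changes, of rps1401 (-0.33) and rpl1603 (-0.26), did not pass, and 93 of 112 changes were positive. Of the 196 other bright genes 35 were called higher and 5 lower, with a median of 0.10. Quantile normalization gave 20 genes lower and none higher, setting the other bright genes equal gave 6 lower and none higher, and array medians equal gave 10 higher and none lower. Over all 2899 genes 865, 1102 and 706 were called either way under these settings, in that order. The share called among the 112 genes was below that over all genes in each. The count of the 112 genes was 16 without double null replicate 2, 8 without cbf12-null replicate 2, 6 without WT replicate 1, 3 without double null replicate 1, 2 without zfs1-null replicate 1 and 0 without any other single array except double null replicate 3. Over all genes 1068 were called without double null replicate 2 and 751 without cbf12-null replicate 2, against 815 in the main fit.

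Losing cbf12 where zfs1 was also absent gave 6 genes called higher and none lower (double null minus zfs1-null; median 0.18; all genes 3.24 percent higher, 5.76 percent lower, median -0.03). They were rpl3801 (0.36), rps1901 (0.32), rpl26 (0.29), rpl101 (0.28), rps402 (0.28) and rpl6 (0.25). The signals of rpl3801, a 60S gene, were 2796, 4011 and 3160 in double null arrays, against 2517, 2534 and 2656 in zfs1-null arrays. The groups do not overlap, and double null replicate 2 stands apart as the highest. The lowest changes, of rpl702 (-0.02) and rpl44 (-0.02), did not pass. Of the 196 other bright genes 11 were called higher and 1 lower, with a median of 0.10. The count was 39 without double null replicate 1, 0 without double null replicate 2, zfs1-null replicate 1 or zfs1-null replicate 2, and 2 without double null replicate 3, zfs1-null replicate 3, cbf12-null replicate 1 or WT replicate 2. Over all genes 446 were called without double null replicate 1 and 192 without double null replicate 2, against 261 in the main fit. Without zfs1-null replicate 1 it was 156, and without zfs1-null replicate 2 it was 120. The count of the ribosomal protein genes was 1 under quantile normalization and 0 under cyclic loess, against 195 and 202 over all genes.

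Losing zfs1 where cbf12 was also absent gave 57 genes called higher and none lower (double null minus cbf12-null; median 0.24; all genes 18.8 percent higher, 15.0 percent lower, median 0.06). All 112 changes were positive, with 25 of 45 40S and 32 of 67 60S genes passing, and the other bright genes had a median of 0.13. The largest were rpl3801 (0.48), rpl1603 (0.47), rps1002 (0.41), rpl1002 (0.41), rpl2101 (0.40) and rpl15 (0.40). The signals of rpl1002 were 3812, 4089 and 3613 in double null arrays, against 2959, 2709 and 3017 in cbf12-null arrays, with no overlap. The count was 23 without cbf12-null replicate 2, 30 without double null replicate 2, 33 without cbf12-null replicate 1 and 37 without double null replicate 3. Over all genes 722, 958, 698 and 874 were called without these arrays, in that order, against 980 in the main fit. The count of the 112 genes was 23 with array medians equal, 34 with the other bright genes set equal and 18 under cyclic loess, 16 of them higher and 2 lower. Over all genes 859, 675 and 976 were called either way under these scalings, in that order. This comparison and that of the double null with WT share the double null arrays.

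The interaction, double null minus zfs1-null minus cbf12-null plus WT, passed for 1 gene (all genes 4.38 percent higher, 5.38 percent lower). The gene was rpl1603, the other dim member, with signals of 790, 1268 and 959 in double null arrays, 773, 700 and 670 in cbf12-null arrays, 779, 794 and 736 in zfs1-null arrays, and 778, 866 and 932 in WT arrays. Its interaction was 0.62 ± 0.19 (SE, limma adjusted p = 0.0467), and double null replicate 2 was the highest array. The count was 0 without 8 of the 12 arrays left out singly, 2 without double null replicate 2 and 5 without double null replicate 1. Over all 2899 genes 366 were called without double null replicate 2 and 326 without double null replicate 1. The count of the 112 genes was 13 under quantile normalization and 23 with the WT level taken from projects 488 and 529, all higher, and 0 with array medians equal. Over all genes 380, 631 and 285 were called either way under these settings, in that order. The share called among the 112 genes was below that over all genes in each. The lowest values, of rps2801 (-0.15) and rpl44 (-0.15), did not pass.

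To show which genes departed from the shared shift, the median of the 112 genes was set equal on all arrays and the fit repeated, an alternative added with the data in view. This scaling holds the 112 genes near 0 by construction and moves all other genes against them. The shares over all genes given here are therefore no test of the 112 genes. In the double null against WT 7 of 112 genes were then called above the shared level and 4 below it, against 64.0 percent of all genes called either way, with a median of -0.39 over all genes. Below it were rpl702 (-0.24), rpl2502 (-0.15), rpl14 (-0.12) and rpl402 (-0.09), and highest above it was rpl4101 (0.17). Over the 3 projects rps1401 (0.33), rpl44 (0.12), rpl1601 (0.11), rpl3401 (0.11), rps29 (0.11) and rpl3802 (0.05) were called above it, against 32.1 percent of all genes called either way. The interaction was then called for 1 gene, rpl3801 (0.40, limma adjusted p = 0.0287), against 4.97 percent of all genes, and no longer for rpl1603 (0.55, limma adjusted p = 0.167).

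Paralogous copies were set side by side, since a shift that both carry equally on an array cancels between them. Whether the copies of a pair carried it equally was not tested. For rps1401 the pooled SD was 0.27 before and 0.28 after the array median of the 112 genes was subtracted. In 42 families at least 2 copies were measured, 39 with 2 and 3 with 3, giving 48 pairs of 87 genes, and 25 genes had no measured copy. Over the 3 projects the zfs1 change of the copies differed by a median of 0.04 on the log2 scale, and by less than 0.1 in 42 pairs. Over all 6216 pairs of the 112 genes the median difference was 0.03. An exact two-sided permutation test within projects, with 100800 arrangements and 1.98e-05 as its smallest p, gave 10 pairs an unadjusted p under 0.05, and none passed after adjustment over the 48 pairs.

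**Figure D5:**
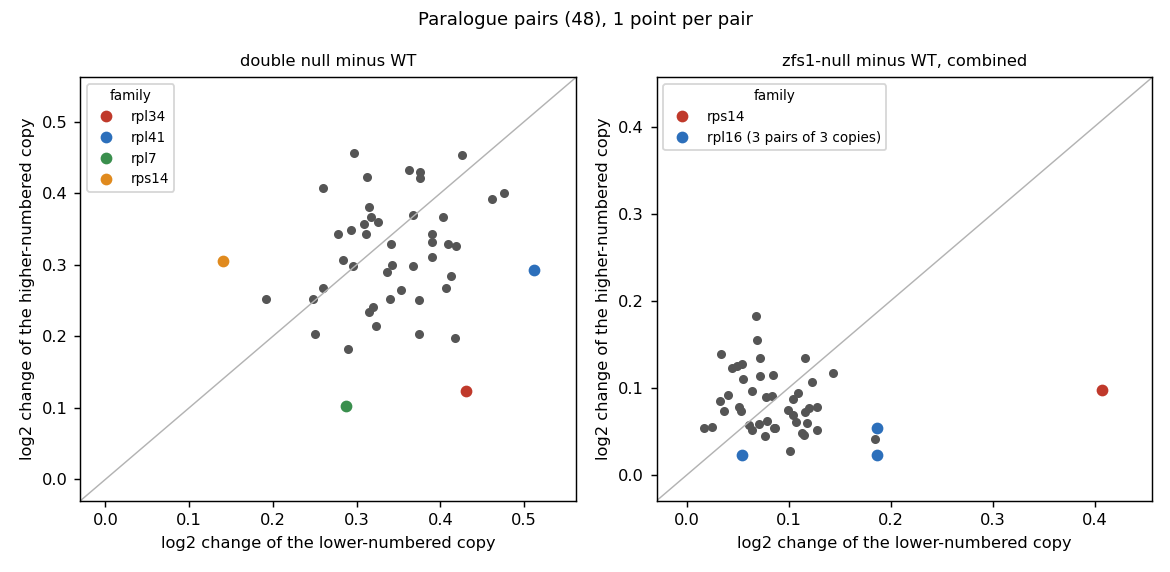
Log2 change of the lower-numbered copy (x axis) against that of the higher-numbered copy (y axis) for 48 paralogue pairs, for the double null minus WT and for the combined zfs1-null minus WT, with the line of equal change. Most pairs lie near the line, and rps1401 and rps1402 lie farthest from it in the combined comparison, at 0.41 and 0.10.

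The pair farthest apart was rps1401 and rps1402, whose zfs1 changes of 0.41 and 0.10 differed by 0.31 (exact p = 0.0213, 0.146 adjusted). In project 529 rps1402 had 3439, 3471, 3529, 3763 and 3598 in zfs1-null arrays, against 3687, 3289, 3684, 3481 and 3348 in WT arrays, which overlap. The brighter copy thus overlapped where the dim one did not. The smallest p belonged to rps401 and rps402, which differed by 0.08 (exact p = 0.00391, 0.0876 adjusted).

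Next were rpl1601 and rpl1602, which differed by 0.13 (exact p = 0.00488), and rps601 and rps602, which differed by 0.07 (exact p = 0.00548). The others of the 10 pairs were rpl2301 and rpl2302 (-0.07), rpl4101 and rpl4102 (0.07), rps101 and rps102 (-0.08), rpl3801 and rpl3802 (-0.08), rps2601 and rps2602 (-0.10), and rps2501 and rps2502 (-0.05), the last 2 named after their values were seen. Least apart were rpl3201 and rpl3202 (0.00), rpl101 and rpl102 (-0.01), rpl2801 and rpl2802 (0.01), and rps1501 and rps1502 (-0.01). Under quantile normalization 3 pairs passed after adjustment, and without WT replicate 3 of project 582 1 pair did.

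In the double null against WT, where 3 against 3 arrays allow no exact test of a pair to pass, the copies differed by a median of 0.07, and by less than 0.1 in 34 of 48 pairs. The median over all 6216 pairs of the 112 genes was also 0.07. The widest was rpl3401 (0.43) against rpl3402 (0.12), then rpl2501 (0.42) against rpl2502 (0.20), rpl4101 (0.51) against rpl4102 (0.29), and rpl701 (0.29) against rpl702 (0.10). The signals of rpl3402 were 1457, 1631 and 1592 in double null arrays, against 1298, 1553 and 1453 in WT arrays, and those of rpl3401 were 3059, 4725 and 4123 in double null arrays, against 2748, 2861 and 3093 in WT arrays. The groups overlap for both copies.

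Genes that work with the ribosomal proteins were counted by list, against 23.4 percent of all genes called higher and 18.3 percent lower over the 3 projects, and 15.5 percent higher and 19.7 percent lower in the double null. Of the 196 other bright genes 44 were called higher over the 3 projects and 107 in the double null. The lists were counted in the deposited scaling only. Of 10 measured genes (11 listed) for the acidic stalk proteins, which recruit translation factors, and the ubiquitin fusions, 6 were called higher over the 3 projects (median 0.10) and 10 in the double null (median 0.39), among them rpp103 (0.48) and rpp201 (0.47). Of 5 measured elongation factor genes (9 listed) none passed over the 3 projects and 5 were higher in the double null (median 0.41), with tif51 at 0.46, tef5 at 0.41 and tef101 at 0.40. Of 18 measured initiation factor genes (33 listed) 1 was higher over the 3 projects and 7 in the double null (median 0.14), with tif11 at 0.51.

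Genes of TOR signalling and regulators of ribosomal protein genes were counted in the same way. The TOR counts were near the shares over all genes in both comparisons. Of 19 TOR pathway genes 6 were higher and 4 lower over the 3 projects, and in the double null 2 were higher, the kinase gad8 (0.38) and fkh1 (0.45), and 4 lower, among them tco89 (-0.46) and the GTPase rhb1 (-0.31), with a median of -0.13. Of 6 measured regulators of ribosomal protein gene transcription (9 listed) the casein kinase genes cka1 (0.13) and ckb1 (0.19) were higher over the 3 projects, and none passed in the double null (median -0.12). Of 11 listed chaperones of ribosomal proteins 1 was measured, arx1, which passed in neither comparison.

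Of the 112 genes, 8 pairs are direct neighbours in the RefSeq annotation. In the double null against WT the changes of neighbours differed by a median of 0.02, against 0.07 over all 6216 pairs of the 112 genes, and over the 3 projects by 0.04 against 0.03. The neighbours rps1602 and rpl13 had 0.34 each in the double null, and rps29 and rps27 had 0.47 and 0.38.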

How the data were processed

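Per the submitters' processing notes the arrays were processed with MAS5. Each deposited value is an intensity, the linear MAS5 signal of a probe set. The trimmed mean (2 percent at each end) was 500.1 to 500.2 on all 28 arrays, which removes any shift common to most genes. Per the labels' protocols, RNA was amplified before labelling, which can distort differences. The MAS5 version is not stated there.

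Values were log2-transformed with no further scaling. The background was percentile 95 of other-species probe sets. Symbols came from the array's gene table and a RefSeq annotation (ASM294v3), which updated 1 member symbol (rpl35A01). All 2899 genes were fitted with limma 3.58.1 in R 4.3.3 (intensity trend, Benjamini-Hochberg over all genes, threshold 0.05), and project 582 as 4 strains in 1 fit. Whether replicates were separate cultures is not stated beyond the word biological, so p-values measure the spread between these samples, and the number of arrays limits precision. Paralogue tests used Python 3.11.15.

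The named genes are the 12 largest called changes over the 3 projects with 1 sign in all, up to 6 per direction in each project 582 contrast or the 2 largest where none was called, up to 4 in each project, 6 for the difference between projects, 8 pairs of smallest p and 4 of smallest difference, and the largest and smallest spread. The genes that departed from the shared shift, members at the low end of the double null and the widest pairs in it were picked after their values were seen. Members and lists were chosen with earlier results of these data known. The fits and the permutation test were tested on simulated data. Samples of the same replicate number in a project correlated between -0.30 and 0.31 in their deviations from group means, and the main fits did not pair them. Whether they were handled together is not known from these values. Alternatives were other scalings, filters, probe set choices, no trend, a replicate block and each array left out. Promoter and protein sequences were not analysed here.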

Additional observations from a re-analysis of the deposited data

Results flagged for a closer look

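In 5 of 104 groups of 5 arrays examined, 1 array lay far from the other 4, and chance gives about 1 in 20. In WT of project 529 rpl1802 had 3301 on 1 array against a median of 3513, and rpl4102 had 7314 against a median of 6594. In the zfs1-null of project 529 rpl2802 had 4129 (median 4346), rps1501 had 4290 (median 4381) and rps602 had 4286 (median 4539).

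Other genes were noted because the effect of a deletion differed between groups by limma's test. The adjusted p of the interaction of both deletions was 0.0467 for rpl1603. The adjusted p of the difference in the zfs1 effect between projects was 0.000245 for rpl1001, 0.00264 for rps1602, 0.00319 for rpl3202, 0.00319 for rps2, 0.00511 for rpl2802 and 0.00512 for rps1002.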

How the results depend on the processing

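Counts of called genes, as deposited, are 35 (3 projects combined), 34 (project 488), 14 (529), 2 (582), 1 (cbf12-null against WT), 6 (double null against zfs1-null), 57 (double null against cbf12-null), 98 (double null against WT), 1 (interaction), 55 (difference between projects) and 0 (paralogue pairs). The cause of the moves below was not tested. Counts over all genes also differed between settings, so a count alone does not set the ribosomal protein genes apart. With array medians equal the counts of the ribosomal protein genes were 8 combined, 40 in project 529, 1 in 582, 10 for cbf12-null against WT, 23 for double null against cbf12-null and 0 for the interaction, and this scaling moved the median of all genes for cbf12-null against WT from -0.07 to 0.04. Quantile normalization gave 21 in project 488, 0 in 582, 20 for cbf12-null against WT, 1 for double null against zfs1-null, 14 for double null against WT, 13 for the interaction, 6 for the difference between projects and 3 pairs. In project 529 it gave 14 higher and 2 lower. Cyclic loess gave 13 combined, 16 in 488, 1 in 582, 7 for cbf12-null against WT, 0 for double null against zfs1-null, 18 for double null against cbf12-null, 13 for double null against WT, 2 for the interaction and 13 for the difference between projects. Setting the other bright genes equal, chosen after seeing the data, gave 20 combined, 0 in 582, 6 for cbf12-null against WT, all lower, 34 for double null against cbf12-null, 33 for double null against WT and 33 for the difference between projects, and 9 higher and 6 lower in project 529. Setting the members equal, also chosen after seeing the data, gave 6, 2 (project 488), 0 (582), 5 (cbf12-null against WT), 0 and 5 (double null against zfs1-null and cbf12-null), 11 (double null against WT) and 10 (difference between projects), by construction without the shared shift. With all probe sets tested they were 21 in 488, 8 in 529, 1 in 582, 0 for cbf12-null against WT, 0 for the interaction and 35 for the difference between projects. Without the intensity trend they were 21 in 488, 9 in 529, 1 in 582, 0 for cbf12-null against WT, 1 for double null against zfs1-null and 0 for the interaction. Without the dimmest genes they were 1 in 582 and 0 for the interaction, and 2 combined without a term for project. With only WT and zfs1-null arrays project 582 gave 6. With the WT level taken from projects 488 and 529 the counts were 0 for cbf12-null against WT, 41 for double null against WT and 23 for the interaction, and the zfs1 effect in project 582 was not run.

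The replicate block, for numbers whose samples correlated between -0.30 and 0.31 and were not paired in the main fits, gave 75 in project 488 and 1 for double null against zfs1-null. It moved no other count by over 1.5 times. Leaving out 1 array gave 22 to 51 combined, 10 to 68 in 488, 9 to 18 in 529, 1 to 17 in 582, 0 to 16 for cbf12-null against WT, 0 to 39 and 23 to 83 for double null against zfs1-null and cbf12-null, 66 to 109 for double null against WT, 0 to 5 for the interaction, 36 to 75 for the difference between projects and 0 to 1 pair. The sign of the median of the 112 genes changed in project 529 to 0.025 (quantile) and 0.0053 (other bright genes), for cbf12-null against WT to -0.070 (quantile), -0.025 (other bright genes) and -0.014 (WT level from the other projects), and for the interaction to -0.00590 without double null replicate 2, in a range of -0.00590 to 0.15 with 1 array left out. Of uncalled genes, rps1401 for cbf12-null against WT became 0.13 and rpl44 in the interaction 0.042 with that WT level. For double null against zfs1-null, rpl702 became 0.050 and rpl44 0.050 with array medians equal, and with 1 array left out they ran from -0.098 to 0.034 and from -0.18 to 0.11, positive without double null replicate 1 or zfs1-null replicate 3 for both and, for rpl44, without zfs1-null replicate 2 or double null replicate 3. In project 582 rpl3402 ran from -0.10 to 0.024, positive without WT replicate 2. Of values of single genes and medians of the 112 genes together, 1437 were unchanged. For a gene this meant the same direction and side of the threshold, and for a median the same sign and a move below the genes' median SE. Values of single genes lost their call in 186 cases.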

Other observations

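The 7 probe sets that name a pair of ribosomal protein gene copies were left out of the 112 genes. In the double null against WT all 7 had positive log2 changes, between 0.29 for the probe set of rpl302 and rpl301 and 0.41 for that of rpl1101 and rpl1102, and all 7 passed limma's test over all probe sets. For the zfs1-null against WT over the 3 projects their changes lay between -0.04 and 0.08, and none passed at an adjusted p under 0.05.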
